A study of Mus musculus with 8 samples.

Results

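The Schlafen genes of the mouse encode a family of related proteins that are induced by interferon and, in T cells, are tied to the control of growth and rest. The 6 genes described are Slfn1, Slfn2, Slfn3, Slfn4, Slfn5 and Slfn8, a list of Schlafen symbols looked up in the platform's table of probe sets and genes. Slfn9 and Slfn10-ps were measured too but are not on that list, so counts of the 6 leave them out. Their values are given with the neighbouring genes. The array held 10 probe sets for the 6 genes, 9 named for a single gene and 1 shared by Slfn3 and Slfn4. All 6 genes were among the 12520 genes tested, each through its brightest probe set, and 7 of the 10 probe sets passed the filter on dim signals (a mean level over the 8 arrays of at least 5.38 on the log2 scale).

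The cells were CD8 T cells of C57BL/6 mice, taken from spleens with magnetic beads (positive selection) and cultured over 18 h beside dendritic cells, with 10 T cells to each of them; the dendritic cells that carried peptide had been derived from bone marrow. There were 4 groups of 2 arrays: PKC theta KO T cells with dendritic cells carrying N4, the ovalbumin peptide SIINFEKL (PKCθ KO N4); p50 cRel DKO T cells, which lack those NF-kB subunits, with N4 (p50 cRel DKO N4); wild-type T cells with N4 (WT N4); and wild-type T cells with dendritic cells that carried no peptide (WT non-pulsed). The knockouts are represented only with peptide. Dendritic cells were removed through CD11c before RNA was taken, and the sources used here do not give the T cells' antigen receptor or the age of the mice. No label says whether a group's 2 arrays stem from separate animals or cultures, so the p-values speak for the spread of these arrays alone. That spread may be technical, save in the WT non-pulsed group, whose arrays differ in the sex-linked gene Xist, as given below. The WT N4 arrays differed in the summed signal of B cell markers, 5962 and 13207. A technical spread is thus not established in that group either.

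Levels are given as log2(signal + 16), where signal is the deposited intensity of a probe set, and differences are on the same scale, which understates the changes of dim genes. A difference was counted as changed where limma's Benjamini-Hochberg adjusted p over all 12520 genes was under 0.05. The 2% trimmed mean was 500.0 on each array, which by itself does not show that the arrays are alike. Median signals differed and ran from 33.6 to 70.3. They were 52.6 and 70.3 in WT non-pulsed cells, against 33.6 and 52.5 in WT N4 cells. The number of arrays limits the precision. Rel, which encodes cRel, lay at 6.19 and 5.92 in p50 cRel DKO N4 cells, against 9.82 and 9.53 in WT N4 cells. Prkcq, which encodes PKCθ, averaged 10.88 ± 0.18 in PKCθ KO N4 cells and 11.54 ± 0.28 in WT N4 cells (SD, n = 2 each) and did not pass. The sources used here do not say whether its probes lie in the deleted part, so it checks nothing. The Y-linked gene Eif2s3y ran from 5.42 to 6.73 across the 4 arrays of knockout cells and from 10.65 to 11.20 across the 4 wild-type ones, so in each comparison of knockout with wild type, genotype and this sex-linked reading cannot be told apart. Xist, read from the inactive X, was at 5.18 and 6.65 on the WT N4 arrays, against 6.05 and 11.84 on the WT non-pulsed arrays, which thus differ from each other. WT non-pulsed replicate 2, with the Xist level of 11.84, also had Eif2s3y at 10.65, so both sex-linked genes were high on it. On the knockout arrays Xist ran from 12.27 to 12.57. Results that rest on the WT non-pulsed group were therefore also computed without each of its arrays.

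Schlafen proteins share an amino-terminal core domain, and the longer members, among them Slfn5 and Slfn8, add a helicase-like domain. Members of the family act on transfer RNA: human SLFN11 and rat SLFN13 take part in its cleavage, and mouse Slfn2 shields it from cleavage in T cells under stress. Slfn1 slowed the growth of thymocytes when it was overexpressed, and T cells of mice with a defective Slfn2 lose quiescence and die on activation. Slfn4 is best known from macrophages and other myeloid cells.

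The genes form a cluster on chromosome 11. In GRCm38.p6 the 6 of them span chr11:82951349-83215154, or 263.8 kb, in the order Slfn5, Slfn8, Slfn2, Slfn1, Slfn4 and Slfn3, with Slfn9 and Slfn10-ps between them. All 6 had a start site in RefSeq's promoter table of that assembly; for Slfn5 and Slfn4 it lies downstream of the gene's first annotated base. The bases before the start are shown because the cluster's genes did not all follow one another on the arrays, and the letters let relatives be compared. For Slfn1, Slfn2, Slfn4 and Slfn3, whose starts share a stretch of letters, the last 120 bases before the start read as follows (5′ to 3′ on the gene's strand), with the shared stretch ACTTCCTGG in capitals:
Slfn1, chr11:83116700-83116819, plus strand: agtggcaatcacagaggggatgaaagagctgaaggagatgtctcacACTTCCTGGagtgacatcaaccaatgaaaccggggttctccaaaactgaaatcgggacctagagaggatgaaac
Slfn2, chr11:83064992-83065111, plus strand: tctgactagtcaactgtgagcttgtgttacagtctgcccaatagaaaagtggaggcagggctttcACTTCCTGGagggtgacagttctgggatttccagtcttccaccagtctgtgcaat
Slfn4, chr11:83175066-83175185, plus strand: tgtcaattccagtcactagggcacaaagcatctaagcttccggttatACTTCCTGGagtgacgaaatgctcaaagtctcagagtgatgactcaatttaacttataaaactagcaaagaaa
Slfn3, chr11:83191210-83191329, plus strand: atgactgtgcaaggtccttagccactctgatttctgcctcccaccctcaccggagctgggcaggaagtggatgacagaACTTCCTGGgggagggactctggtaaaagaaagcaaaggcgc
ACTTCCTGG was the longest stretch common to the 250 bases before these 4 starts, and it began 74 bases before the start in Slfn1, 55 in Slfn2, 73 in Slfn4 and 42 in Slfn3. It was looked for after the sequences were seen. On either strand it occurs in 0.7% of the 32851 promoters of the same length in the table. Read on the other strand it holds GGAA, the core that ETS-family factors recognise. The genes that carry it did not behave alike on the arrays, as the values of Slfn1 and Slfn4 against those of Slfn2 and Slfn3 show.

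The core of the interferon-stimulated response element (a pair of GAAA blocks with any 2 bases between them), searched on both strands, was found before Slfn5 and Slfn8, and in 2.98% of all promoters in the table. It lies in capitals in the last 170 bases before the Slfn5 start and, on the opposite strand, in the last 120 before one of the 2 listed Slfn8 starts:
Slfn5, chr11:82951932-82952101, plus strand: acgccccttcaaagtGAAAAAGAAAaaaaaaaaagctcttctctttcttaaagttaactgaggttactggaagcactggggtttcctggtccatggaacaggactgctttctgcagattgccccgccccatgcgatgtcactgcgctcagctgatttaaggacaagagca
Slfn8, chr11:83020811-83020930, minus strand: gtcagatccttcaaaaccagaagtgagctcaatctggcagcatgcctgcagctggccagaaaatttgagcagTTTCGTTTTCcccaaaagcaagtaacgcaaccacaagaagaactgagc
It began 155 bases before the start in Slfn5 and 48 in Slfn8. Neither the STAT motif TTCNNNGAA nor a form of the NF-kB site (GGGA and TCC with any 3 bases between them) was found in the 250 bases before any of the 6 starts; they occur in 7.02% and 3.86% of promoters. Other forms of the NF-kB site were not searched for, so nothing is said of their presence or absence. A match, or the lack of one, in these windows is a description of letters only.

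The first question was what the N4 peptide did in wild-type cultures. Of the 6 genes, Slfn1, Slfn4, Slfn5 and Slfn8 fell with N4 and none rose, while Slfn2 and Slfn3 did not pass limma. The differences were -4.06 log2 units for Slfn1, -3.21 for Slfn5, -2.94 for Slfn4 and -1.99 for Slfn8. Across all genes 23.5% fell and 17.2% rose in this comparison, a high background against which 4 of 6 is to be read. Of the genes that passed, 42.3% rose, and 52.6% with quantile scaling and 61.1% with median centring. The WT N4 arrays lay below the WT non-pulsed arrays without overlap for 5 of the 6, beside 39.1% of all genes. The median difference of the 6 genes was -2.47, beside -0.10 for all genes tested.

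**Figure D1:**
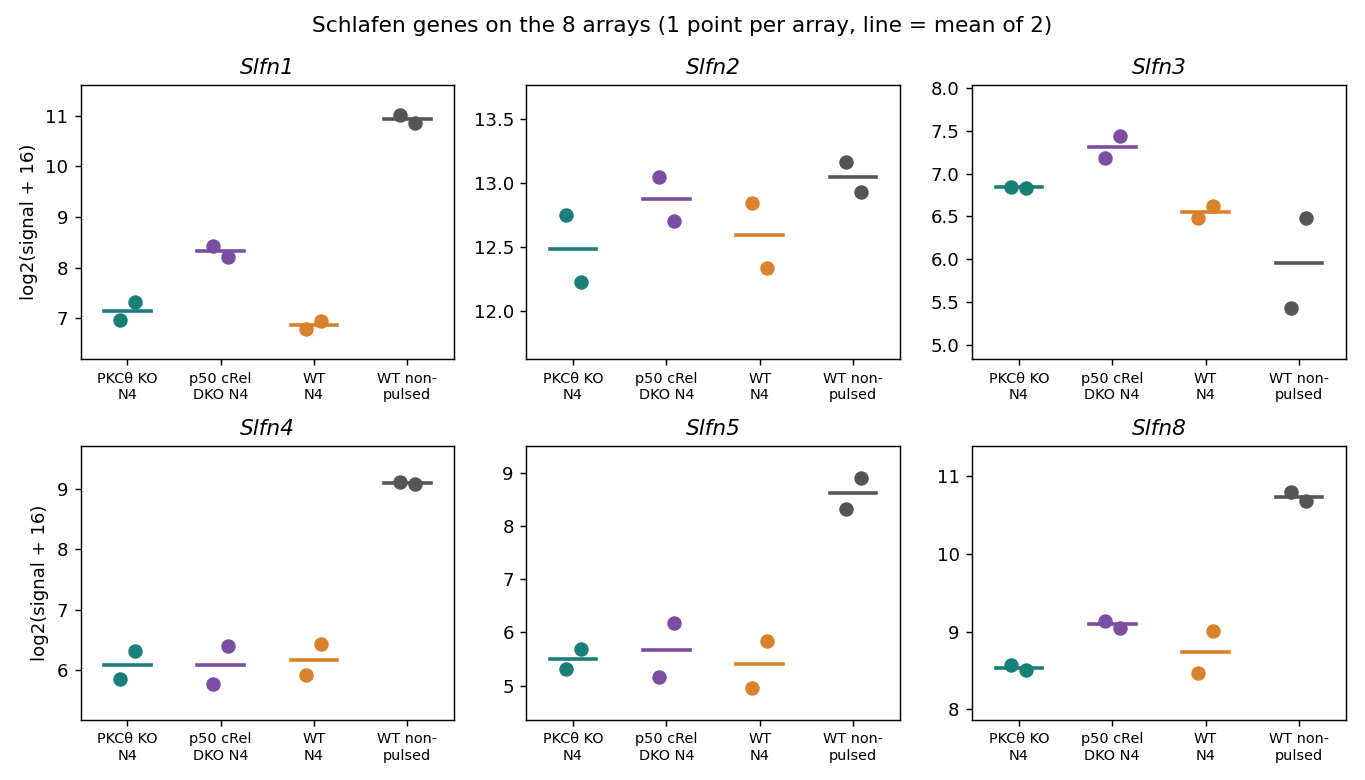
Level of each of the 6 genes, as log2(signal + 16), on every array, with PKCθ KO N4, p50 cRel DKO N4, WT N4 and WT non-pulsed from left to right; each point is 1 array and each line the mean of 2, and each panel has its own vertical range. Slfn1, Slfn4, Slfn5 and Slfn8 are high on the WT non-pulsed arrays, Slfn1 sits higher in p50 cRel DKO N4 than in WT N4, and Slfn2 spans less than 1 unit over the 8 arrays.

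Slfn1, a short family member, had a signal of 94.9 and 107 on the WT N4 arrays, against 2042 and 1833 on the WT non-pulsed arrays. On the log2 scale these are 6.79 and 6.94 with N4 and 11.01 and 10.85 without peptide. The groups lie far apart, and the 2 arrays of each differ little. The difference was -4.06 (SE 0.21, 95% interval -4.54 to -3.58, limma adjusted p = 1.23e-05). A second probe set named for Slfn1, for which the platform's table gives no accession, was dim on every array, between 4.10 and 5.03, and stayed below the filter. It lay at 5.03 and 4.94 in WT N4 and 4.83 and 4.48 in WT non-pulsed cells, so it did not show the fall.

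Slfn8, one of the long members with a helicase-like domain, read 8.47 and 9.01 in WT N4 cells, against 10.78 and 10.68 in WT non-pulsed cells. Both WT N4 arrays were lower than both WT non-pulsed arrays, with more spread between the N4 arrays. It fell by 1.99 (SE 0.20, limma adjusted p = 0.00016). Slfn5, also long, read 4.96 and 5.84 in WT N4 cells, against 8.31 and 8.91 in WT non-pulsed cells, and fell by 3.21 (SE 0.45, limma adjusted p = 0.000713). Its N4 values lie around the filter level of 5.38, and its difference ran from -3.85 to -2.27 over the alternatives. Another Slfn5 probe set read 4.59 and 5.04 with N4 and 7.06 and 6.50 without peptide, and its groups do not overlap. The remaining one read 4.38 and 5.12 with N4 and 5.03 and 6.22 without, and its groups overlap. Neither reached the filter, so neither was tested.

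Slfn4, the member best known from myeloid cells, read 5.91 and 6.42 in WT N4 cells, against 9.13 and 9.09 in WT non-pulsed cells. It fell by 2.94 (SE 0.32, limma adjusted p = 0.00022). Slfn3, its neighbour and close relative, read 6.48 and 6.62 in WT N4 cells, against 5.44 and 6.48 in WT non-pulsed cells. The highest WT non-pulsed array and the lowest WT N4 array were level to within 0.01, and the difference of 0.59 (SE 0.36) did not pass (limma adjusted p = 0.232). It passed as a rise when the arrays were scaled by quantiles (0.97) or medians (0.99), and without WT non-pulsed replicate 2 (1.11, limma adjusted p = 0.0393), while without WT non-pulsed replicate 1 the difference was 0.06. The probe set that Slfn3 and Slfn4 share read 6.24 and 6.38 in WT N4 cells, against 6.36 and 6.80 in WT non-pulsed cells. It did not follow the fall of the Slfn4 probe set, and signal from these neighbours cannot be told apart in it.

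Slfn2, the member with a known part in T cell quiescence, was bright on every array. Its signal was 7335 and 5148 on the WT N4 arrays, against 9161 and 7768 on the WT non-pulsed arrays, or 12.84 and 12.33 against 13.16 and 12.93. The lower WT non-pulsed array stood just above the higher WT N4 array. The difference of -0.46 (SE 0.23, 95% interval -0.98 to 0.06) did not pass limma (adjusted p = 0.150); it passed with quantile scaling (-0.64, limma adjusted p = 0.025) and was near 0 with median centring (-0.056, limma adjusted p = 0.931). Without WT N4 replicate 1 it was -0.71 and without WT N4 replicate 2 it was -0.20, neither of which passed. The interval leaves out a fall of the size measured for Slfn1, Slfn4, Slfn5 or Slfn8.

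**Figure D2:**
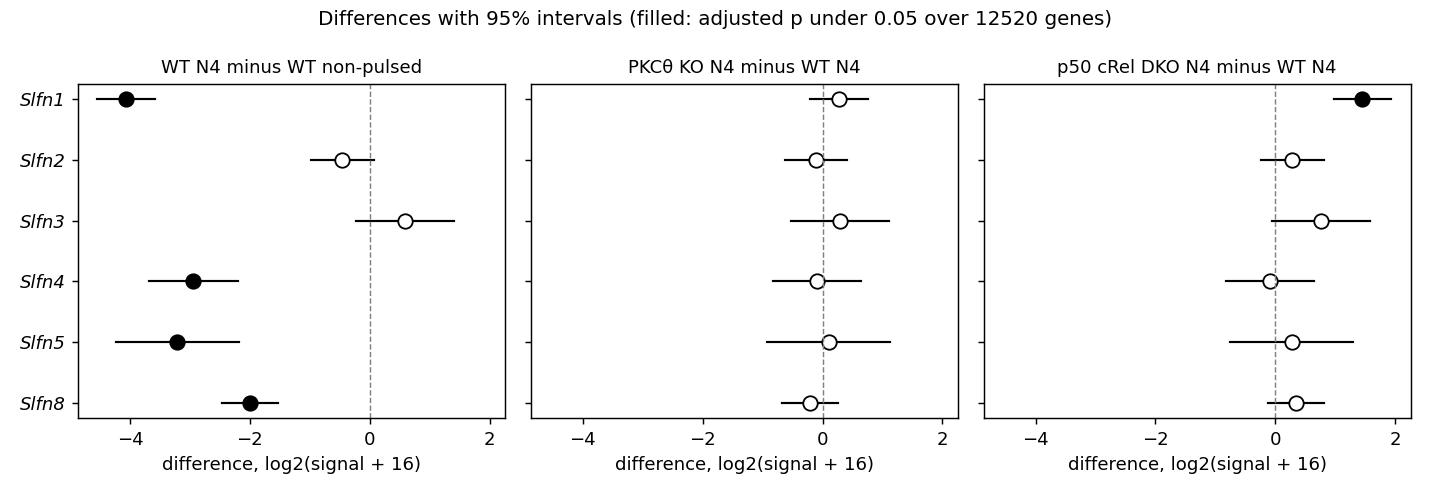
Difference of each gene in log2(signal + 16) with its 95% interval from limma, for WT N4 minus WT non-pulsed (left), PKCθ KO N4 minus WT N4 (middle) and p50 cRel DKO N4 minus WT N4 (right); filled points have an adjusted p under 0.05 over 12520 genes. In the left panel 4 points lie far below 0, in the middle panel every interval includes 0, and in the right panel the Slfn1 interval runs from 0.97 to 1.93.

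Slfn1, Slfn4, Slfn5 and Slfn8 passed as lower in WT N4 under every alternative that measured them, 19 for Slfn1, Slfn4 and Slfn8 and 18 for Slfn5, which a stricter filter removed. Without each array in turn the differences ran from -4.14 to -3.99 for Slfn1, from -3.20 to -2.69 for Slfn4, from -3.65 to -2.77 for Slfn5 and from -2.26 to -1.72 for Slfn8. Over all genes the median difference was -0.10 on the deposited scale, and it moved to 0.09 with quantile scaling and to 0.30 with median centring.

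Markers of other cell types moved with peptide too. With N4, 17 of 17 measured markers of B cells fell, as did 25 of 29 of dendritic cells and macrophages, where 0 rose, and 10 of 10 of neutrophils. The lists hold 18, 32 and 14 genes, and measured genes are those whose mean over the 8 arrays passed the filter. Genes high only in WT non-pulsed cells could pass it, so these counts are partly set by the filter. In WT N4 cells S100a9 and Mpo averaged 4.97 and 5.07, under the filter level of 5.38. In WT non-pulsed cells they averaged 11.90 and 8.51. The summed signal of the B cell markers was 5962 and 13207 on the WT N4 arrays, against 66443 to 97464 on the WT non-pulsed arrays. That of the dendritic cell and macrophage markers was 7844 to 12684 with N4 and 95345 to 116116 without, and that of the neutrophil markers 600.0 to 1977 and 33159 to 33870. No marker is at 0, since every deposited signal is positive. Csf1r, the receptor that macrophages need to survive, averaged 8.19 in WT N4 and 12.95 in WT non-pulsed cells. CD8 T cell markers went the other way: 6 of 10 rose with N4, 0 fell and 4 did not pass, and Cd8a was higher by 1.07. The part of these cells in the falls of the Schlafen genes was not tested, and in such RNA fewer cells of a type and less RNA per cell cannot be told apart. On median-centred arrays the counts that fell were 16, 24 and 10 of the same 3 lists.

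**Figure D3:**
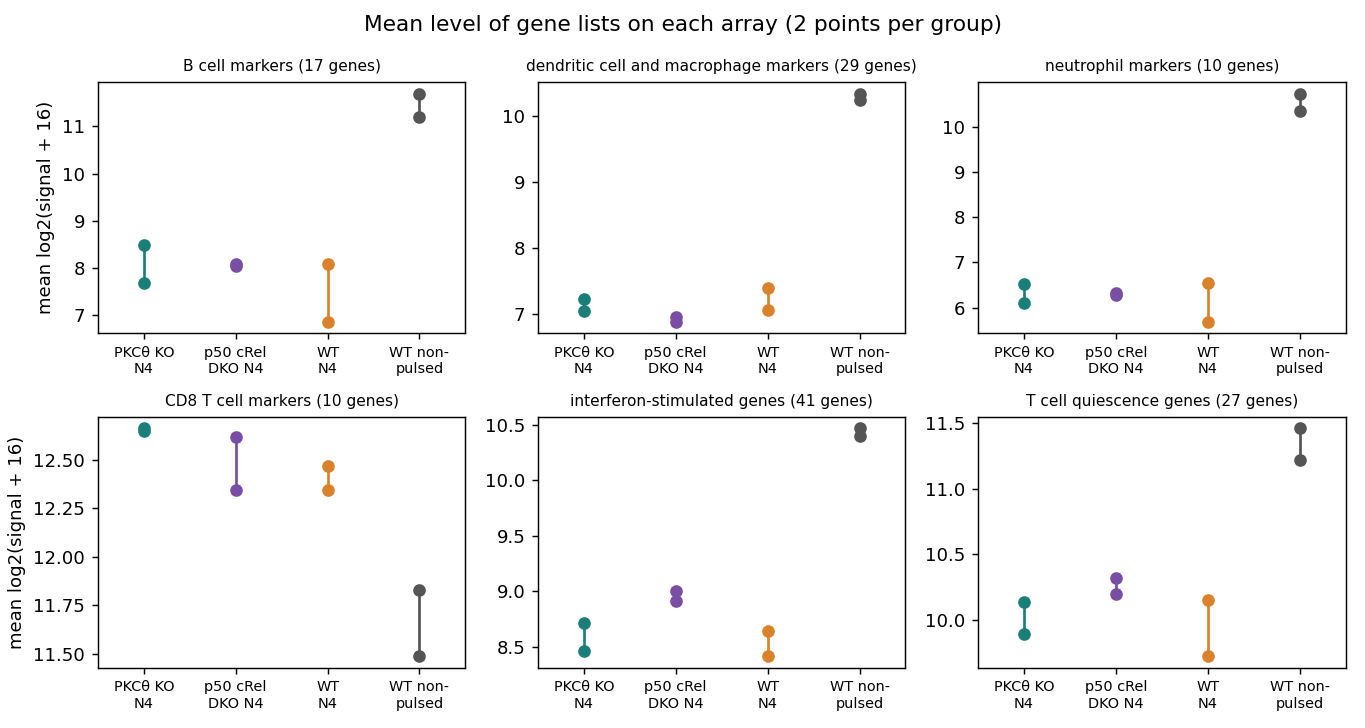
Mean level of 6 gene lists on each array, as log2(signal + 16), with PKCθ KO N4, p50 cRel DKO N4, WT N4 and WT non-pulsed from left to right; the 2 points joined by a line are the 2 arrays of a group, and panels have their own vertical range. Markers of B cells, dendritic cells and macrophages, and neutrophils, interferon-stimulated genes and quiescence genes are highest on the WT non-pulsed arrays, and CD8 T cell markers are lowest there.

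Genes tied to the known roles of the family were counted in the same comparison, where 23.5% of all genes fell and 17.2% rose, and with median centring 11.5% fell and 18.1% rose. Of 41 measured interferon-stimulated genes outside the family 32 fell, 2 rose and 7 did not pass (median -1.94). The lowest p-values were those of Ifit1bl1 (-6.34), Rtp4 (-4.60), Samd9l (-4.50), a negative regulator of growth, and Ifit3 (-3.78). With median centring 24 of the 41 fell. Ifit1bl1 averaged 5.26 in WT N4 cells, under the filter level of 5.38. The same filter partly sets the counts of every list in this paragraph. Of 16 genes of interferon reception and signalling 10 fell, 1 rose and 5 did not pass, and 6 fell with median centring. Those that fell included the type I interferon receptor chains Ifnar1 (-1.39) and Ifnar2 (-1.25), the repressor Irf2 (-1.79) and the feedback protease Usp18 (-2.28), which is also on the list before. Of 27 quiescence genes other than Slfn2, 15 fell, 0 rose and 12 did not pass (median -0.91), and 9 fell with median centring. At the lowest p were Klf2 (-5.55), Il7r (-3.29), the PI3K inhibitor Pik3ip1 (-4.52) and the retinoblastoma relative Rbl2 (-1.73). Genes that process, modify, cut or mend transfer RNA behaved otherwise: 10 of 19 rose, 1 fell and 8 did not pass. Among them the methyltransferase Nsun2 rose by 0.98, the tRNA 3′ end nuclease Elac2 by 0.87 and the methyltransferase Trmt5 by 0.88, and angiogenin, Ang, a secreted ribonuclease that cuts tRNA, fell by 2.23. Among markers of further cells, 2 of 5 NK and innate lymphocyte genes fell, Fcer1g (-4.20) and Tyrobp (-5.32), and 1 rose, Cd160 (2.21). Of the CD4 T cell genes 3 of 5 fell, among them Zbtb7b (-1.90) and St8sia6 (-4.92), and Ctla4 (2.78) and Cd40lg (1.56) rose. Of 2 erythroid genes 1 fell. Which cells these changes come from was not tested.

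The next question was whether loss of PKCθ altered the family in cells given N4. None of the 6 genes passed limma between PKCθ KO N4 and WT N4 cells, where 0.024% of all genes did. At an unadjusted p under 0.05, 0 of the 6 and 2.96% of all genes passed. For Slfn1 and Slfn3 both PKCθ KO N4 arrays lay above both WT N4 arrays, 2 of 6 beside 11.5% of all genes. Slfn1 read 6.96 and 7.32 in PKCθ KO N4 cells, against 6.79 and 6.94 in WT N4 cells, a difference of 0.27 (95% interval -0.21 to 0.75). Slfn8 read 8.56 and 8.51 in PKCθ KO N4 cells, inside the range of 8.47 and 9.01 in WT N4 cells. Slfn2 read 12.74 and 12.22 in PKCθ KO N4 and 12.84 and 12.33 in WT N4 cells, and its interval ran from -0.63 to 0.42. For Slfn3, Slfn4 and Slfn5 the differences were 0.29, -0.09 and 0.10, and their intervals, the widest from -0.92 to 1.13 for Slfn5, still allow differences of up to about a unit. In none of the 11 gene lists did a measured gene pass in this comparison; the interferon-stimulated genes had a median difference of 0.07 and the B cell markers one of 0.56.

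A further question was what loss of p50 and cRel did. Slfn1 rose in p50 cRel DKO N4 cells relative to WT N4 cells and the other 5 genes did not pass, where 0.248% of all genes rose. Its signal was 326 and 281 in p50 cRel DKO N4 cells, against 94.9 and 107 in WT N4 cells. On the log2 scale it read 8.42 and 8.22 in the double knockout, above both WT N4 arrays, and lay higher by 1.45 (SE 0.21, 95% interval 0.97 to 1.93, limma adjusted p = 0.0242). The call is close to the threshold: it was lost (adjusted p between 0.0513 and 0.309) without either array of the p50 cRel DKO N4, WT N4 or WT non-pulsed group, the last of which enters only through the shared spread, and under 4 other settings. The difference itself stayed between 1.16 and 1.58 under all 19 alternatives. The other Slfn1 probe set, dim and below the filter, was not tested. It read 4.22 and 4.10 in p50 cRel DKO N4 cells, against 5.03 and 4.94 in WT N4 cells. Its values thus went the other way and did not show the rise. The sex-linked difference named above lies between these arrays too, and its part in the rise was not tested.

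Slfn3 read 7.18 and 7.43 in p50 cRel DKO N4 cells, against 6.48 and 6.62 in WT N4 cells. The groups do not overlap, as for Slfn1 and, narrowly, Slfn8, or 3 of 6 beside 15.3% of all genes, yet the difference of 0.76 (95% interval -0.06 to 1.57) did not pass (limma adjusted p = 0.876). Slfn8 read 9.14 and 9.04 in p50 cRel DKO N4 and 8.47 and 9.01 in WT N4 cells, and Slfn2 13.05 and 12.70 in p50 cRel DKO N4 and 12.84 and 12.33 in WT N4 cells; their differences were 0.35 and 0.29 without passing. Slfn4 (5.76 and 6.40 in the double knockout) and Slfn5 (5.17 and 6.18) differed from WT N4 cells by -0.09 and 0.27, and their arrays overlap those of WT N4.

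In the same comparison 3 of 41 interferon-stimulated genes rose, 0 fell and 38 did not pass (median 0.18, beside -0.0019 for all genes). They were Ifit1bl1 (3.66, from a WT N4 mean of 5.26, under the filter level), Ifit3 (2.11) and Rtp4 (1.76). With median centring 2 rose. Of the quiescence genes Klf2 rose (1.77) and the other 26 did not pass; with median centring 0 passed. No gene of interferon reception and signalling (16) or of tRNA processing (19) passed. Of the CD8 T cell markers Cd2 fell (-0.98) and 9 did not pass. No B cell, dendritic cell and macrophage, neutrophil, NK, CD4 T cell or erythroid marker passed, although the B cell median was 0.47 and the summed B cell signal was 13721 to 14917 in p50 cRel DKO N4 cells, against 5962 to 13207 in WT N4 cells. The part of B cells in the rise of Slfn1 was not tested.

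Between the knockouts set directly against each other, none of the 6 genes passed limma, where 0.431% of all genes passed. Slfn1 read 8.42 and 8.22 in p50 cRel DKO N4 cells, against 6.96 and 7.32 in PKCθ KO N4 cells, a difference of 1.18 (SE 0.21, 95% interval 0.70 to 1.66, limma adjusted p = 0.0675). Slfn8 differed by 0.55 (95% interval 0.09 to 1.02, limma adjusted p = 0.578), with both p50 cRel DKO N4 arrays above both PKCθ KO N4 arrays. The same held for Slfn1 and Slfn3, or 3 of 6 beside 18.3% of all genes. At an unadjusted p under 0.05 Slfn1 and Slfn8 passed, 2 of 6 beside 7.16% of all genes.

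Against WT non-pulsed cells, with peptide and genotype differing together, Slfn1, Slfn4, Slfn5 and Slfn8 were lower in both knockouts and passed, where 24% of all genes fell in PKCθ KO N4 cells and 22.8% in p50 cRel DKO N4 cells. These comparisons share the WT non-pulsed arrays with the wild-type one. Slfn1 differed from WT non-pulsed cells by -3.79 in PKCθ KO N4, -2.61 in p50 cRel DKO N4 and -4.06 in WT N4 cells. Slfn8 differed by -2.20 in PKCθ KO N4, -1.64 in p50 cRel DKO N4 and -1.99 in WT N4 cells. For Slfn4 the differences were -3.04, -3.03 and -2.94 with the genotypes in that order, and for Slfn5 -3.11, -2.94 and -3.21. Slfn3 was higher in p50 cRel DKO N4 than in WT non-pulsed cells (1.34, SE 0.36, limma adjusted p = 0.0168, where 16.5% of all genes rose) and differed by 0.88 in PKCθ KO N4 cells without passing, unless WT non-pulsed replicate 2 was left out (limma adjusted p = 0.016) or the arrays were scaled by quantiles (1.28) or medians (1.29). That rise did not pass without WT non-pulsed replicate 1 (0.82, limma adjusted p = 0.0959) or without either p50 cRel DKO N4 array (1.47 and 1.22). Slfn2 passed in neither comparison. It differed by -0.56 in PKCθ KO N4 cells, and by -0.17 in the double knockout. The first of these passed with quantile scaling (-0.79) and without PKCθ KO N4 replicate 1 (-0.82, limma adjusted p = 0.042), and did not pass with median centring (-0.15, limma adjusted p = 0.809) or without PKCθ KO N4 replicate 2 (-0.30, limma adjusted p = 0.406).

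Over all 4 groups, the level of Slfn1 ran from WT N4 (6.87 ± 0.10, SD, n = 2) through PKCθ KO N4 (7.14 ± 0.25), then p50 cRel DKO N4 (8.32 ± 0.14), to WT non-pulsed (10.93 ± 0.11). Its lowest neighbours in that order, WT N4 and PKCθ KO N4, did not differ beyond the test. For Slfn4 and Slfn5 the 3 groups with N4 could not be ordered, since their arrays overlap. Over the 8 arrays the levels of Slfn1, Slfn4, Slfn5 and Slfn8 had a Pearson's r between 0.92 and 0.99 for each pair. All 4 were highest on the 2 WT non-pulsed arrays, and each r holds that gap, by which they were called. It does not show that they go together among the N4 arrays. There Slfn1 was higher in p50 cRel DKO N4 than in WT N4 cells, while Slfn4 averaged 6.08 and 6.17 in these groups. Slfn2 had a lower r with the same 4 genes (between 0.40 and 0.65). Slfn3 had a negative r with each of the 4 (between -0.71 and -0.54).

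Among all genes tested, those most like Slfn1 over the 8 arrays were Gm32633 (r = 0.997), 1810062O18Rik (r = 0.996) and Epsti1 (r = 0.996). Epsti1, which interferon induces, differed by -3.08 in WT N4 cells against WT non-pulsed ones and was higher by 1.24 in p50 cRel DKO N4 than in WT N4 cells. For Slfn8 they were Pik3ip1 (r = 0.993), Zup1 and Sh2d3c, and for Slfn5 the ubiquitin ligases Rnf114 (r = 0.995) and Rnf166 and the stress kinase Eif2ak3. For Slfn4 they were Dzip1 (r = 0.997), the apoptosis inhibitor Birc2 and Etfrf1. Slfn2 was nearest to the signalling adaptor Traf2 (r = 0.985), Tatdn2 and Cdipt, and Slfn3 to Tmod1 (r = 0.979), Dennd2d and Pura. These likenesses are descriptions over 8 arrays in 4 groups.

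The falls with N4 did not extend evenly along the chromosome. Left of Slfn5, of the nearest 5 measured genes the DNA ligase Lig3 (0.71) and the ribosome assembly gene Nle1 (0.79) rose with N4, and Zfp830, Rffl and Rad51d did not pass. Slfn9 (0.38) and Slfn10-ps (0.41), which lie among the 6 genes and were named after their values were seen, did not pass either. Right of Slfn3, AI662270 (0.39) and Taf15 (-0.44) did not pass, the adaptor subunit gene Ap2b1 fell (-0.68), and the chemokine genes Ccl5 (-1.75) and Ccl9 (-2.31), whose starts lie 461 and 508 kb from that of Slfn2, fell too. Ccl9 was also lower in p50 cRel DKO N4 than in WT N4 cells (-2.17, limma adjusted p = 0.018), a larger difference than that of Slfn1.

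**Figure D4:**
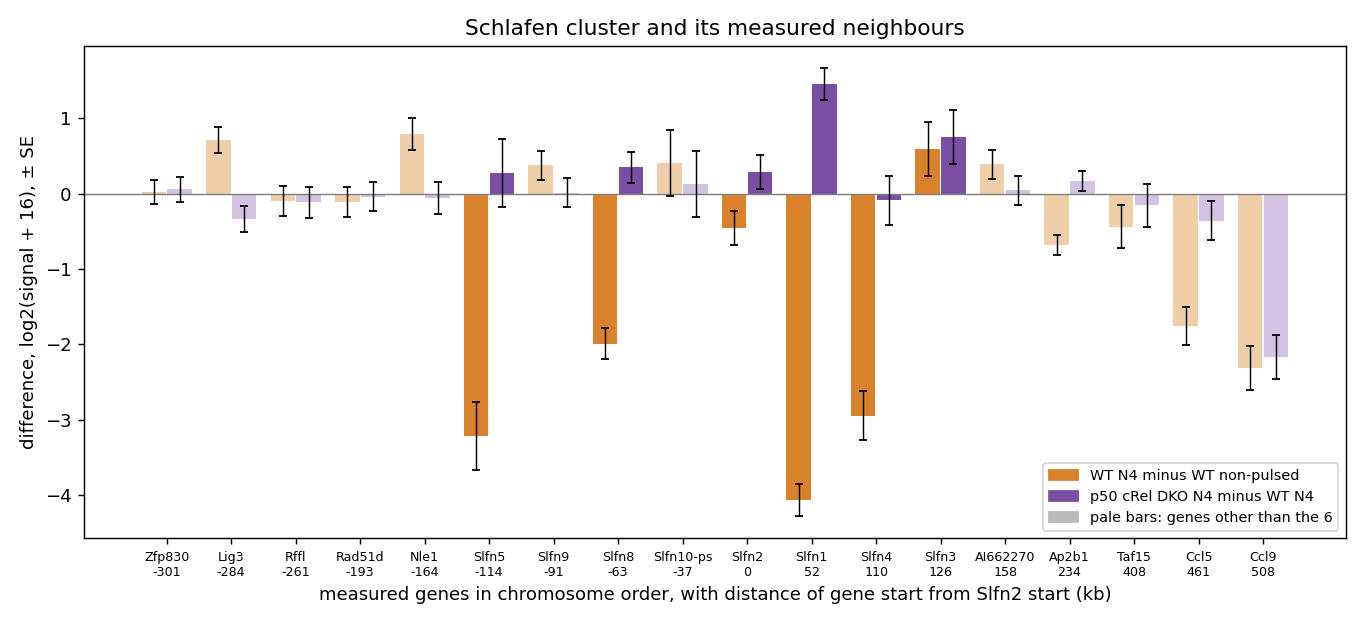
Differences in log2(signal + 16) with their SE for the 6 Schlafen genes (full colour) and the measured genes among and beside them (pale), in chromosome order with the distance of each start from the Slfn2 start in kb; orange is WT N4 minus WT non-pulsed and purple p50 cRel DKO N4 minus WT N4. Long downward orange bars stand at Slfn5, Slfn8, Slfn1 and Slfn4, and pale ones at Ccl5 and Ccl9 to the right. The orange bars at Slfn9, Slfn10-ps, Slfn2 and Slfn3 are short and of either sign. The long purple bars are those of Ccl9 (-2.17) and Slfn1 (1.45).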

How the data were processed

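RNA of CD8 T cells was read on 8 Affymetrix mouse arrays, from 100 ng of total RNA each. The deposited values are linear intensity signals, and the submitters' processing notes name GCOS 1.4 and MAS5; the sources used here give no further step. Of 45101 probe sets 64 controls were left out. Names came from the platform annotation (34945 probe sets with 1 gene, 932 with several, 9160 unnamed). For 34741 probe sets the symbol was taken by Entrez identifier from RefSeq genes of GRCm38.p6, whether or not it differed. Values were taken as log2(signal + 16), probe sets with a mean under the 40th percentile (5.38) were dropped, and each gene kept its brightest probe set, leaving 12520 genes. A single limma 3.58.1 fit in R 4.3.3 (lmFit, eBayes with trend) held all 8 arrays with a coefficient for each of 4 groups. From it 6 comparisons were drawn. On simulated data the fit recovered 60 of 100 changes of 1.5 log2 units and 88 of 100 of 3.0 units. A gene that did not pass can therefore still have changed. Intervals are 95% and p-values two-sided. Each comparison was repeated under 19 alternatives, 1 of them (each probe set tested on its own) added after the data were seen. The members, the 11 lists and the tests were chosen with earlier results of these data known. Named are the 6 genes, Prkcq and Rel, up to 4 genes of a list with the lowest p, the 3 genes most like each member, and up to 5 measured neighbours on each side; Eif2s3y, Xist, Slfn9 and Slfn10-ps were named after their values were seen.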

Additional observations from a re-analysis of the deposited data

How the results depend on the processing

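The falls of Slfn1, Slfn4, Slfn5 and Slfn8 in WT N4 cells, and in each knockout against WT non-pulsed cells, passed under every alternative that measured them. The count of Schlafen genes that passed between p50 cRel DKO N4 and WT N4 was 1, and 0 without the filter on low values (adjusted p of Slfn1 0.0541), with median centring (0.0907), with only the arrays of the 2 groups (0.0545) and with each probe set tested on its own (0.055); leaving out 1 array at a time it ranged from 0 to 1. A 60th percentile filter left 4 of the 6 genes measured, and 3 in place of 5 then passed between p50 cRel DKO N4 and WT non-pulsed. The count for PKCθ KO N4 against WT N4 was 0 under all 19. Replicate numbers were read from titles, which do not say what they mark, so the main fit did not take same-numbered arrays as pairs. Such arrays did deviate together (correlations of 0.255 to 0.579 over genes). With the replicate number as a block, Slfn1 passed between p50 cRel DKO N4 and PKCθ KO N4 (1 gene in place of 0, limma adjusted p = 0.0318). Slfn2 passed as lower with that block in WT N4 (limma adjusted p = 0.00507) and in PKCθ KO N4 (limma adjusted p = 0.00171) against WT non-pulsed, and Slfn3 as higher in the second of these (limma adjusted p = 0.0369). Over the whole array, 65 genes passed between p50 cRel DKO N4 and WT N4, 36 with median centring, 35 without a trend, 200 with the block and 13 to 77 with 1 array left out. Between p50 cRel DKO N4 and PKCθ KO N4, 54 passed, 28 without the filter, 17 without a trend, 35 probe sets on their own, 98 with only the 2 groups, 152 with the block and 0 to 65 with 1 array left out. Between PKCθ KO N4 and WT N4 3 passed, with 0 to 5 over all alternatives. No called difference of the 6 genes reversed. The 2 arrays of a group limit what could be called, and the levels of Slfn5 with N4 lie at the dim end.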
